A study of Mus musculus with 6 samples.

Results

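The formins are actin assembly factors, and 9 formin genes of the mouse were examined in liver tumor cell lines among the 20856 genes with values in the expression table: *Fhod1*, *Fhod3*, *Diaph1*, *Diaph2*, *Diaph3*, *Fmnl1*, *Fmnl2*, *Fmnl3* and *Daam1*. They were chosen as the family of *Fhod3*, which in turn was chosen by its RPKM values, lower in one genotype of these same lines. The values of *Fhod3* are therefore given as a description without a test, and the comparisons between genotypes concern the 8 other members. *Diaph1*, *Diaph2* and *Diaph3* are listed in the table under the older symbols Diap1, Diap2 and Diap3.

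Formins carry the formin homology domains FH1 and FH2. A dimer of FH2 domains nucleates an unbranched actin filament and stays on its growing barbed end, while FH1 delivers actin bound to profilin. Many formins, the Diaphanous proteins foremost, fold onto themselves until an upstream signal opens them, and the filaments they build form stress fibers, filopodia and the contractile ring of dividing cells. By using up actin monomers they also release the coactivator MRTF to the transcription factor SRF. *Fhod3* is best known from cardiac muscle, where its product is needed to build sarcomeres.

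RNA-seq was performed on 6 lines derived from liver tumors of adult female C57BL/6 mice. All lines carry a *Myc* cDNA transposon delivered to hepatocytes in vivo by hydrodynamic injection together with a pX330 plasmid for transient expression of Cas9 and a guide RNA. In 3 lines the guide targeted p53 (gene *Trp53*; genotype Myc;sgp53/Cas9, called sgp53 lines here), and in 3 lines it targeted *Mll3* (gene *Kmt2c*, a histone methyltransferase; genotype Myc;sgMll3/Cas9, called sgMll3 lines here). No line was treated, and no line with both genes intact was included, so a difference between the genotypes is a difference between 2 edited states. Fibroblasts were removed from the cultures by passaging, as judged by eye. The lines are not isogenic, each is a single derived culture, and edits of *Kmt2c* can leave an intact allele. The authors state that the 3 lines of each genotype are independent and come from different mice. The sample descriptions of sgMll3 lines 2 and 3 (2A and 2T1) do not themselves say so.

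The libraries hold 5312182 to 6878625 reads on genes in the sgp53 lines and 3680068 to 4704539 in the sgMll3 lines, so that 1 read on a transcript of 2 kb is worth 0.0726 to 0.136 RPKM (reads per kilobase of transcript, scaled to the reads of the library). *Trp53* transcript was at 17.2 to 19.4 RPKM in the sgp53 lines and 92.2 to 124 RPKM in the sgMll3 lines, whereas *Kmt2c* overlapped between the genotypes (18.4 to 24.2 and 9.51 to 25.0 RPKM). The liver markers differed between lines: *Alb* (albumin) was at 0.644 to 4.36 RPKM, whereas the sum of 8 hepatocyte markers was 36.6, 12.7 and 22.8 RPKM in sgp53 lines 1, 2 and 3 and 1248, 3.58 and 206 RPKM in sgMll3 lines 1, 2 and 3, of which *Hnf4a* made up 1186 and 170 RPKM in sgMll3 lines 1 and 3. These *Hnf4a* values rest on 2409 and 313 reads over a listed length of 431 bases, the shortest of the 8. A short listed length raises RPKM, so *Hnf4a* weighs heavily in the sum. The mean was lower in the sgMll3 lines for 1 of the 8 hepatocyte markers and for 0 of 5 epithelial markers, *Krt8* and *Krt18* among them. Of the tested ones, 4 hepatocyte and 5 epithelial genes, 0 separated the genotypes without overlap. Line 1 of the sgMll3 genotype stood apart, with *Krt8* at 1662 RPKM and *Krt18* at 2065 RPKM against 9.27 to 431 and 14.2 to 342 RPKM in the other 5 lines. All 5 endothelial markers, *Pecam1* among them, were under 1 RPKM in all 6 lines. Of 8 immune markers, 4 were under 1 RPKM in every line, including the pan-leukocyte gene *Ptprc*, and the sum was 48.7, 22.7 and 60.1 RPKM in the sgp53 lines and 6.28, 5.51 and 16.1 RPKM in the sgMll3 lines. The myeloid genes *Lyz2* (29.0, 17.1 and 45.3 against 0, 0.214 and 12.4 RPKM) and *Csf1r* (10.00, 1.70 and 8.33 against 0.932, 0 and 0.967 RPKM), named after their values were seen, did not overlap between the genotypes. Of 3 tested immune markers these 2 lay lower without overlap in the sgMll3 lines, as did 10.4% of all genes tested. *Cd68*, the other tested immune marker, overlapped, at 7.60, 2.60 and 4.01 against 5.35, 5.29 and 1.71 RPKM. *Lyz2* made up most of the immune sum in each sgp53 line. The summed level of 8 fibroblast markers was 15.0, 986 and 166 RPKM in sgp53 lines 1, 2 and 3 and 0.282, 149 and 110 RPKM in sgMll3 lines 1, 2 and 3, and the mean of each of the 8 was lower in the sgMll3 lines.

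*Fhod3* (ENSMUSG00000034295, chromosome 18, positions 24709445 to 25133500 of GRCm38) was at 19.2, 10.9 and 17.0 RPKM in sgp53 lines 1, 2 and 3 and at 0.275, 0.401 and 1.69 RPKM in sgMll3 lines 1, 2 and 3. All sgp53 lines were far above all sgMll3 lines, and within the sgMll3 genotype line 3 held most of the transcript. The means were 15.7 ± 4.32 and 0.788 ± 0.781 RPKM (SD, n = 3 lines each), a 19.9-fold difference that became 46.5-fold without sgMll3 line 3 and lay between 15.0-fold and 23.0-fold when any other line was left out. On the log2(RPKM + 1) scale the difference was -3.27, which understates a change in a gene this low. These values chose the gene and support nothing by themselves.

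The sgMll3 values of *Fhod3* rest on 7, 8 and 39 reads, against 634, 313 and 634 reads in the sgp53 lines. Exact Poisson intervals (95%, counting error only) ran from 0.110 to 0.566 RPKM for sgMll3 line 1, from 0.173 to 0.791 RPKM for line 2 and from 1.20 to 2.31 RPKM for line 3. Line 3 thus lay above the other sgMll3 lines by more than counting error, and transcript was detected in each of the 3. Because these are bulk libraries, fewer cells with the transcript and less transcript per cell cannot be told apart.

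Marker levels of other cell types moved with *Fhod3* in part. The immune sum was lower in every sgMll3 line than in every sgp53 line. So was the fibroblast gene *Dcn*, named after its values were seen, at 7.39, 0.897 and 8.16 RPKM against 0, 0 and 0.248 RPKM. *Dcn* was too low to test. Of the 4 tested fibroblast markers, 0 lay lower in the sgMll3 lines without overlap, beside 10.4% of all genes tested. The fibroblast sum, in which *Col3a1* made up 814 RPKM of sgp53 line 2, overlapped between the genotypes. The part of the marker levels in the *Fhod3* difference was not tested. Of 14 sarcomere genes, the setting in which *Fhod3* is best known, 9 were under 1 RPKM in every line, including *Mybpc3* (cardiac myosin-binding protein C) at no more than 0.140 RPKM. *Tnnt2* (cardiac troponin T), named after its values were seen, had the highest mean of the list in both genotypes, at 1.50, 2.35 and 10.4 RPKM in the sgp53 lines and 2.65, 45.4 and 16.8 RPKM in the sgMll3 lines. Its mean was higher in the sgMll3 lines, whereas that of 10 of the 14 was lower. Of the 4 tested sarcomere genes, 2 had a log2 difference below 0 and 2 above.

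The nearest tested gene before *Fhod3* on the chromosome, *Elp2* (a subunit of Elongator), was at 70.0, 76.0 and 62.3 RPKM in the sgp53 lines and 39.6, 47.2 and 61.3 RPKM in the sgMll3 lines, a log2 difference of -0.50 (95% interval -1.02 to 0.02, adjusted p = 0.592 from limma). After it, *Tpgs2* (a subunit of tubulin polyglutamylase) was at 3.74, 4.56 and 4.11 RPKM against 1.36, 2.61 and 4.78 RPKM, a log2 difference of -0.48 (-1.37 to 0.41, adjusted p = 0.720 from limma). Neither neighbor passed the test. *Tpgs2* shares 6278 bases of its span with *Fhod3*, and whether the counting used strand is not given in the sources used here, so reads in the shared stretch cannot be assigned with certainty. *Tpgs2* had at most 97 reads in a line, fewer than *Fhod3* in each sgp53 line, but with 22, 33 and 70 reads in the sgMll3 lines it had more than *Fhod3* in each of those.

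*Fhod1*, the widely expressed paralog of *Fhod3* (chromosome 8, 105329163 to 105347953), which bundles actin in stress fibers, was at 8.69, 10.8 and 11.2 RPKM in the sgp53 lines and 11.9, 15.4 and 10.5 RPKM in the sgMll3 lines. The lines of the genotypes overlapped. The log2 difference was 0.27 (95% interval -0.30 to 0.83, adjusted p = 0.747 from limma). *Fhod3* made up 68.9%, 50.1% and 60.2% of the summed *Fhod1* and *Fhod3* level in the sgp53 lines and 2.26%, 2.54% and 13.8% in the sgMll3 lines. *Fhod1* shares 6057 bases with *Tmem208*, to which the same uncertainty about strand applies.

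**Figure D1:**
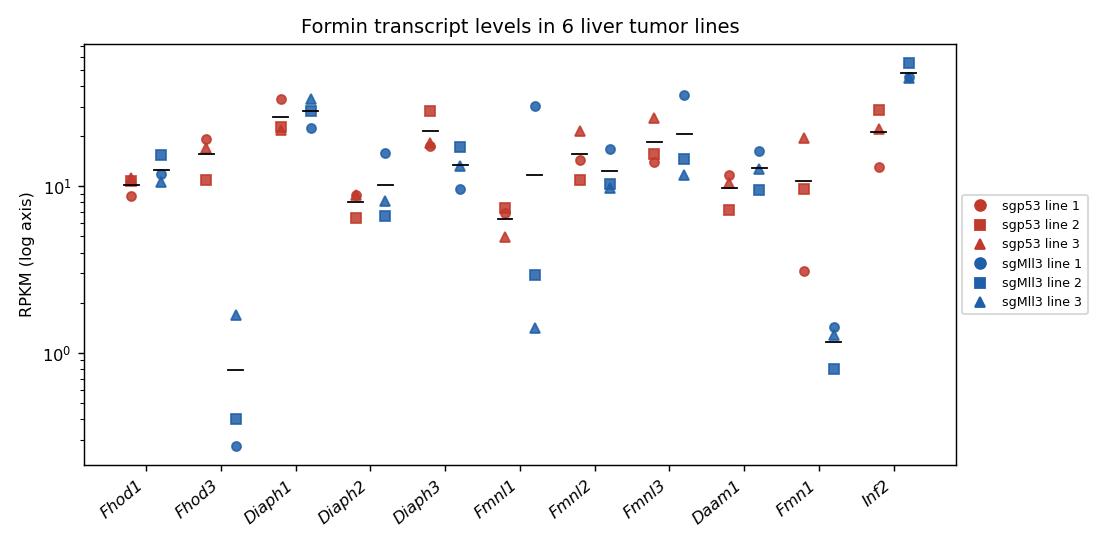
RPKM (log axis) of 11 formins in each of the 6 lines, with sgp53 lines in red, sgMll3 lines in blue, a marker shape per line number and a black bar at the mean of 3 lines. *Fhod3* lies at 10.9 to 19.2 RPKM in the sgp53 lines and at 0.275 to 1.69 RPKM in the sgMll3 lines. *Diaph3*, *Fmn1* and *Inf2* also do not overlap between genotypes, as 16.2% of all genes tested do not in either direction. *Fmnl1* spreads from 1.41 to 30.6 RPKM within the sgMll3 lines.

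Among the Diaphanous formins, which act in stress fibers and cytokinesis, only *Diaph3* separated the genotypes. *Diaph3* (chromosome 14, 86655367 to 87141224) was at 17.5, 28.3 and 18.3 RPKM in the sgp53 lines and 9.63, 17.3 and 13.2 RPKM in the sgMll3 lines. Every sgMll3 line lay below every sgp53 line, but sgMll3 line 2 nearly met sgp53 line 1. The means were 21.4 ± 6.04 and 13.4 ± 3.83 RPKM (SD, n = 3 each), 1.60-fold apart, with a log2 difference of -0.64 (95% interval -1.35 to 0.07, adjusted p = 0.608 from limma). The exact two-sided permutation test gave p = 0.1, the smallest that 3 lines against 3 can give. Lines that do not overlap and lie lower in the sgMll3 genotype were found for 10.4% of the 11617 genes tested, and for 1 of the 8 members other than *Fhod3*.

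*Diaph1* (chromosome 18, 37843601 to 37935476), the listed formin with the highest mean level in the sgp53 lines, was at 33.6, 22.7 and 21.7 RPKM there and 22.4, 28.4 and 33.7 RPKM in the sgMll3 lines. The genotypes overlapped almost fully, with a log2 difference of 0.12 (95% interval -0.49 to 0.73, adjusted p = 0.894 from limma). *Diaph2* (chromosome X, 129749742 to 130465834), linked to ovarian function, was at 8.82, 6.46 and 8.81 RPKM against 15.8, 6.60 and 8.20 RPKM. Only sgMll3 line 1 lay above the sgp53 range, and the log2 difference of 0.24 (-0.59 to 1.07, adjusted p = 0.837 from limma) became -0.10 without it.

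Promoter windows were read for the formins with an entry. Windows run from 250 bases before to 50 bases after the annotated start (RefSeq, GRCm38.p6), and 7 of the 9 members have an entry. *Fhod3* and *Diaph1* have none, so their promoters were not read. The *Diaph3* window (chr14:87141175-87141474, minus strand) is printed because it holds 3 CCAAT boxes (CCAAT on either strand, in capitals; ATTGG is its reverse complement), the letters bound by NF-Y, and 3.37% of 32851 windows hold as many.

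Diaph3: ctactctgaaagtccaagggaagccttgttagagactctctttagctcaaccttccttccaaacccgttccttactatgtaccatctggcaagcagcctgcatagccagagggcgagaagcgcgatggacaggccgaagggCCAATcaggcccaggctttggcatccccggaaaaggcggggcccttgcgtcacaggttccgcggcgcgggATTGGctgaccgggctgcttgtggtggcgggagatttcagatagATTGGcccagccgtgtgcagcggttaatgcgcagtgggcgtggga

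At least 1 CCAAT is found in 37.4% of all windows, and besides *Diaph3* the motif was found in the windows of *Fmnl3* and *Daam1* among the members. A match of these letters is a description of the sequence and no evidence of binding.

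The formin-like proteins are linked to Cdc42 and Rac signaling at the cell edge, and among the members *Fmnl1* and *Fmnl3* varied most within the sgMll3 genotype. *Fmnl1* (chromosome 11, 103171107 to 103198901), known mainly from leukocytes, was at 6.89, 7.36 and 4.96 RPKM in the sgp53 lines and 30.6, 2.92 and 1.41 RPKM in the sgMll3 lines. Line 1 of the sgMll3 genotype lay above all sgp53 lines, and lines 2 and 3 lay below them. The mean log2 difference of -0.13 (95% interval -2.32 to 2.05, adjusted p = 0.967 from limma) averages over this split, and without sgMll3 line 1 it was -1.25 (adjusted p = 0.386 from limma). The SD of *Fmnl1* among the sgMll3 lines, 1.97 on the log2(RPKM + 1) scale, was larger than that of 97.0% of the genes tested, whereas among the sgp53 lines it was 0.261.

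*Fmnl3* (chromosome 15, 99317225 to 99370482), which drives filopodia, was at 14.1, 15.6 and 25.8 RPKM in the sgp53 lines and 35.6, 14.7 and 11.6 RPKM in the sgMll3 lines. Here too sgMll3 line 1 was the highest of the 6 lines, and the log2 difference of 0.03 (95% interval -1.04 to 1.11, adjusted p = 0.984 from limma) became -0.42 without it. *Fmnl2* (chromosome 2, 52857860 to 53134202), linked to lamellipodia and migration, was at 14.4, 10.9 and 21.5 RPKM against 16.7, 10.4 and 9.72 RPKM, with a log2 difference of -0.31 (-1.10 to 0.48, adjusted p = 0.779 from limma). *Daam1* (chromosome 12, 71831078 to 71992367), an effector of Dishevelled in noncanonical Wnt signaling, was at 11.6, 7.17 and 10.5 RPKM against 16.3, 9.53 and 12.7 RPKM. Its genotypes overlapped, with a log2 difference of 0.36 (-0.33 to 1.05, adjusted p = 0.728 from limma).

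Line 1 was the highest sgMll3 line for *Fmnl1*, *Fmnl2*, *Fmnl3*, *Diaph2* and *Daam1* and the lowest for *Diaph1*, *Diaph3* and *Fhod3*. It is the line with the highest keratin levels, and the part of that in the formin levels was not tested. Of the 8 members other than *Fhod3*, 0 passed an adjusted p of 0.05 in limma, against 0.129% of all genes tested (15 of 11617, with 0.0775% lower and 0.0516% higher in the sgMll3 lines), and 0 had an unadjusted p under 0.05, against 8.58%. With voom on the recovered reads 0 passed as well. The median log2 difference of these 8 was 0.08, beside -0.09 over all genes tested.

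**Figure D2:**
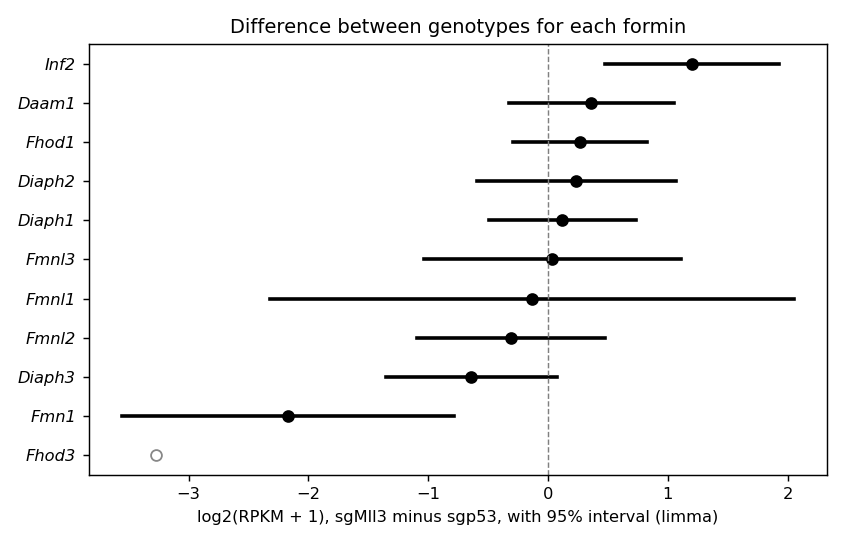
Difference in log2(RPKM + 1) between sgMll3 and sgp53 lines for each tested formin, as the limma estimate (point) with its 95% interval (line). Intervals of the 8 members other than *Fhod3* include 0, *Inf2* lies at 1.20 and *Fmn1* at -2.17, and *Fhod3* at -3.27 is drawn as an open point without an interval because its own values chose it.

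Of 5 further mouse formins, 4 were matched in the table, and 2 of these were too low to test. *Inf2*, a formin that also severs filaments and acts at the endoplasmic reticulum in mitochondrial fission (chromosome 12, 112588784 to 112615556), was at 13.1, 28.8 and 22.0 RPKM in the sgp53 lines and 45.1, 55.0 and 44.7 RPKM in the sgMll3 lines. Every sgMll3 line was above every sgp53 line, as it was for 5.72% of genes. The means of 21.3 ± 7.91 and 48.2 ± 5.83 RPKM (SD, n = 3 each) differed 2.26-fold, between 1.90-fold and 2.75-fold with any line left out. The log2 difference of 1.20 (95% interval 0.47 to 1.93) had an unadjusted p = 0.00611 and an adjusted p = 0.388 from limma, so it did not pass.

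*Fmn1*, formin 1 of limb development (chromosome 2, 113327736 to 113716767), was at 3.09, 9.70 and 19.5 RPKM in the sgp53 lines and 1.42, 0.796 and 1.28 RPKM in the sgMll3 lines. The sgp53 lines spread widely and all lay above the sgMll3 lines, which hold only 16, 7 and 13 reads. Such lower lines without overlap were found for 10.4% of all genes tested. The means were 9.25-fold apart, or 5.49-fold without sgp53 line 3. The log2 difference of -2.17 (95% interval -3.55 to -0.78) had an unadjusted p = 0.00795 and an adjusted p = 0.405 from limma. *Daam2* had 10, 8 and 52 reads against 1, 1 and 13 (exact two-sided permutation p = 0.5), and *Fmn2* had 2 reads in sgMll3 line 2 and none elsewhere.

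The promoters of *Fmn1* (chr2:113327486-113327785, plus strand) and *Inf2* (chr12:112588517-112588816, plus strand) are printed as those of the tested formins with an entry that lay furthest apart between genotypes, in opposite directions. The printed *Fmn1* window holds 1 CCAAT box, in capitals on the reverse strand, and no CCAAT is found in the printed *Inf2* window. Each of these genes also has a second window, not printed, without a CCAAT.

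Fmn1: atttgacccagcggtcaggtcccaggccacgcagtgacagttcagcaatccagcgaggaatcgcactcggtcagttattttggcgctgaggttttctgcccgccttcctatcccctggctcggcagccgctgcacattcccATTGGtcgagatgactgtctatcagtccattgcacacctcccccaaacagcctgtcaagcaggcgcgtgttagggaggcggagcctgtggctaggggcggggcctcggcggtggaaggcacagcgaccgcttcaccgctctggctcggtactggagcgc

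Inf2: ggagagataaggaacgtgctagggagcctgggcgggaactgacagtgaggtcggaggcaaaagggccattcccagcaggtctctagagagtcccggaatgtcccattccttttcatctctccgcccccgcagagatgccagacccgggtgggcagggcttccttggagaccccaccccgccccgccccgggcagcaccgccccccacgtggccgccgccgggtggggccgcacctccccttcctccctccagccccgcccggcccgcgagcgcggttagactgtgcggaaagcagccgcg

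The summed level of the 13 listed formins found in the table was alike in size, at 164 ± 16.3 RPKM in the sgp53 lines and 172 ± 29.7 RPKM in the sgMll3 lines (SD, n = 3 each). Formins outside the list were not looked up. The shares within it are given as a description, without a test. *Fhod3* took 9.62 ± 2.94% of the sum in the sgp53 lines and 0.504 ± 0.545% in the sgMll3 lines, *Fmn1* took 6.28 ± 4.33% and 0.680 ± 0.181%, and *Inf2* took 12.9 ± 4.81% and 28.6 ± 6.17% (SD, n = 3 each). *Diaph1* took 16.1 ± 5.39% and 17.0 ± 5.85%.

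**Figure D3:**
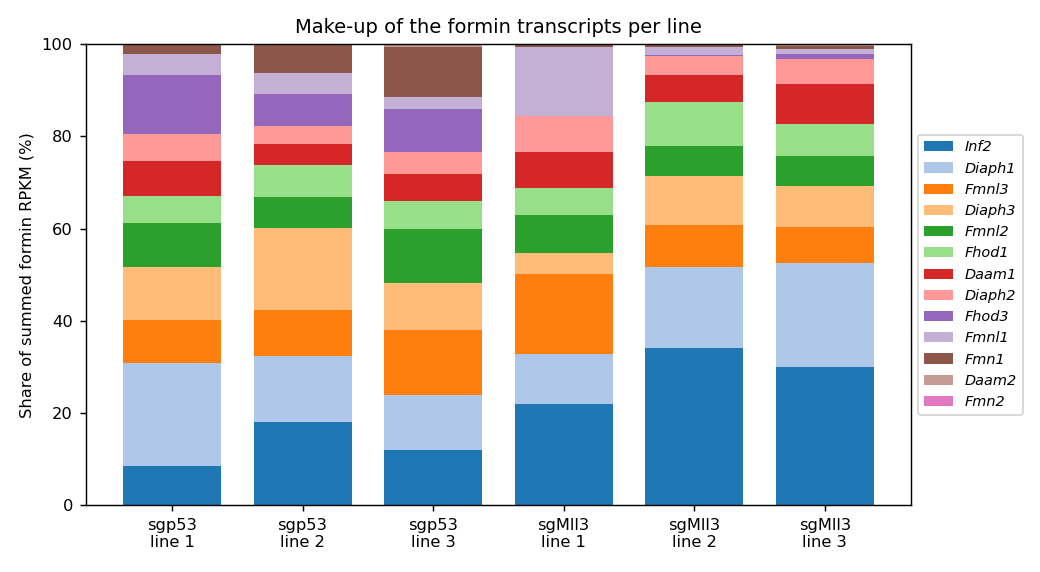
Share (%) of each of 13 formins in the summed formin RPKM of each line, stacked to 100%. The purple *Fhod3* band is 6.84% to 12.7% in the sgp53 lines and at most 1.13% in the sgMll3 lines, where the dark blue *Inf2* band is 21.9% to 34.0%.

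Ranked by mean RPKM in the sgp53 lines, the order was *Diaph1*, *Diaph3*, *Inf2*, *Fmnl3*, *Fhod3*, *Fmnl2*, *Fmn1*, *Fhod1*, *Daam1*, *Diaph2*, *Fmnl1*, *Daam2* and *Fmn2*. Down to *Fmnl1* the ranges of neighbors overlapped, so *Fhod3*, in place 5, was not distinct from *Fmnl3* above it or *Fmnl2* below it. In the sgMll3 lines *Inf2* came first, clear of *Diaph1*. *Fhod3* was in place 11, its range overlapping those of *Fmn1* above and *Daam2* below, and these low formins were separated from *Diaph2* and all formins above it except *Fmnl1*, whose lowest line was at 1.41 RPKM.

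The genes whose profile over the 6 lines was most like that of *Fhod3*, by the root-mean-square difference of gene-centered log2(RPKM + 1), were *Nox4* (0.206), *Tpm2* (0.325), *Mxra7* (0.408), *Cdkn2a* (0.437) and *Bmp6* (0.470). *Nox4*, an NADPH oxidase, was at 14.4, 6.98 and 13.0 RPKM in the sgp53 lines and 0, 0 and 0.395 RPKM in the sgMll3 lines. Like *Fhod3*, it was lowest among the sgp53 lines in line 2. Its values rest on only 52, 22 and 53 reads against 0, 0 and 1, over a listed length of 592 bases. *Cdkn2a*, which encodes Ink4a and Arf, was far more abundant, at 405, 451 and 424 RPKM against 21.2, 49.3 and 51.3 RPKM. Among the listed formins *Fmn1* came closest, in place 109 of all genes tested with a difference of 1.01, and *Diaph3* was in place 1367. All of these genes share the 6 libraries with *Fhod3*, and the measure picks genes that differ by genotype.

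**Figure D4:**
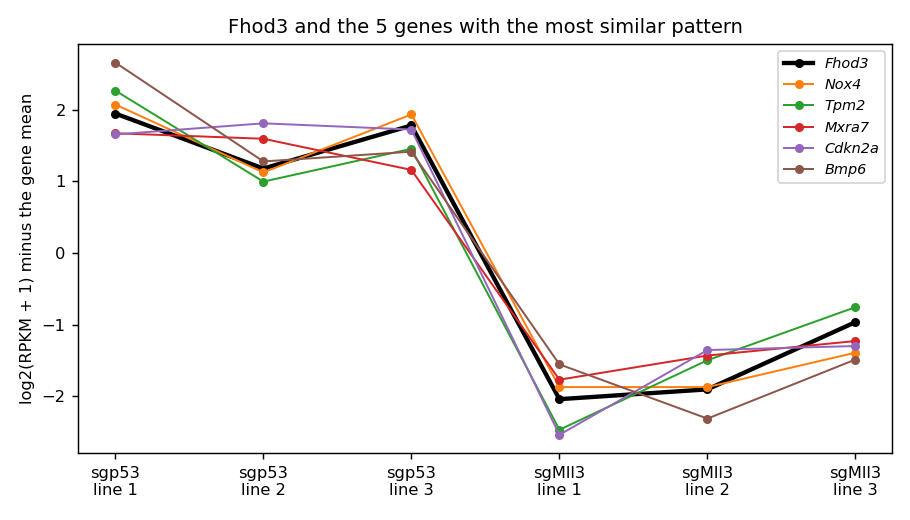
Log2(RPKM + 1) minus the mean of each gene over the 6 lines, for *Fhod3* (thick black line) and the 5 genes with the smallest root-mean-square difference from it. All 6 genes lie above their mean in the sgp53 lines and below it in the sgMll3 lines, and *Nox4* runs closest to *Fhod3*, at 0.206.

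The genes around the formins in actin assembly were read from lists of signaling regulators, actin and its end-binding factors, the branched-filament machinery and SRF targets. Of 58 tested genes (other formins included), 0 passed the adjusted threshold in limma, in either direction, and 1 higher and 9 lower had an unadjusted p under 0.05, beside 3.25% and 5.34% of all genes tested. With voom on the recovered reads 0 passed as well. The median log2 difference was -0.13, beside -0.09 over all genes tested.

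*Cdc42*, a GTPase of filopodia, was at 177, 205 and 194 RPKM in the sgp53 lines and 103, 140 and 188 RPKM in the sgMll3 lines, a log2 difference of -0.46 (95% interval -1.05 to 0.14, adjusted p = 0.643 from limma). Among the substrates and partners, *Actb* was at 1637, 1805 and 2489 RPKM against 1485, 1677 and 1478 RPKM, *Actg1* at 372, 410 and 461 RPKM against 310, 393 and 330 RPKM, and *Pfn1* (profilin 1) at 933, 1027 and 917 RPKM against 780, 915 and 934 RPKM. Their log2 differences were -0.33, -0.27 and -0.13, with adjusted p-values of 0.710, 0.710 and 0.824 from limma. *Capza1*, which caps the barbed end that formins protect, was at 36.9, 54.6 and 40.8 RPKM against 27.4, 24.3 and 35.7 RPKM and was the 1 gene of 14 in its list with an unadjusted p under 0.05 (log2 difference -0.58, adjusted p = 0.580 from limma). Of 15 tested genes of the Arp2/3 complex, which builds branched filaments, and its activators, 0 had an unadjusted p under 0.05, with a median log2 difference of 0.12.

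Of the 9 lower genes, 7 were in the SRF and MRTF list. Its 18 genes were all tested, and 7 had an unadjusted p under 0.05 in limma, all 7 lower in the sgMll3 lines. Over all genes tested, 5.34% were lower at that threshold. After adjustment 0 of the 18 passed. The median log2 difference of the list was -0.52, beside -0.09 over all genes tested. *Cnn1* (calponin of smooth muscle) was at 9.90, 30.3 and 38.4 RPKM in the sgp53 lines and 0, 0.229 and 0.790 RPKM in the sgMll3 lines, a log2 difference of -4.19 (95% interval -5.46 to -2.93, adjusted p = 0.0611 from limma). *Tpm2* (beta-tropomyosin), which was also the second most like *Fhod3*, was at 29.3, 11.6 and 16.3 RPKM against 0.137, 1.23 and 2.73 RPKM (log2 difference -3.15, -4.40 to -1.89, adjusted p = 0.148 from limma). In neither gene did the genotypes overlap, and 10.4% of all genes tested lay lower in the sgMll3 lines without overlap.

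*Cyr61*, a secreted matricellular protein, was at 123, 133 and 202 RPKM against 54.7, 59.9 and 82.3 RPKM (log2 difference -1.20, -1.83 to -0.56, adjusted p = 0.322 from limma). *Myl9*, a regulatory myosin light chain, was at 4.65, 12.5 and 28.4 RPKM against 0, 1.68 and 1.45 RPKM (log2 difference -2.80, -4.42 to -1.19, adjusted p = 0.375 from limma). The other 3, *Cnn2*, *Tagln* and *Vcl*, were named after their values were seen and lay at log2 differences of -2.94, -2.55 and -0.66. *Srf* itself was at 21.4, 26.2 and 26.8 RPKM against 13.0, 23.1 and 22.6 RPKM (log2 difference -0.36, adjusted p = 0.719 from limma). *Acta2*, a smooth muscle and myofibroblast actin, was at 3.50, 10.2 and 124 RPKM against 0, 6.40 and 11.2 RPKM, so its genotypes overlapped. Several of these genes are also expressed by fibroblasts, whose 8 markers were lower on average in the sgMll3 lines as given above, as was the immune sum, and the part of this was not tested.

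**Figure D5:**
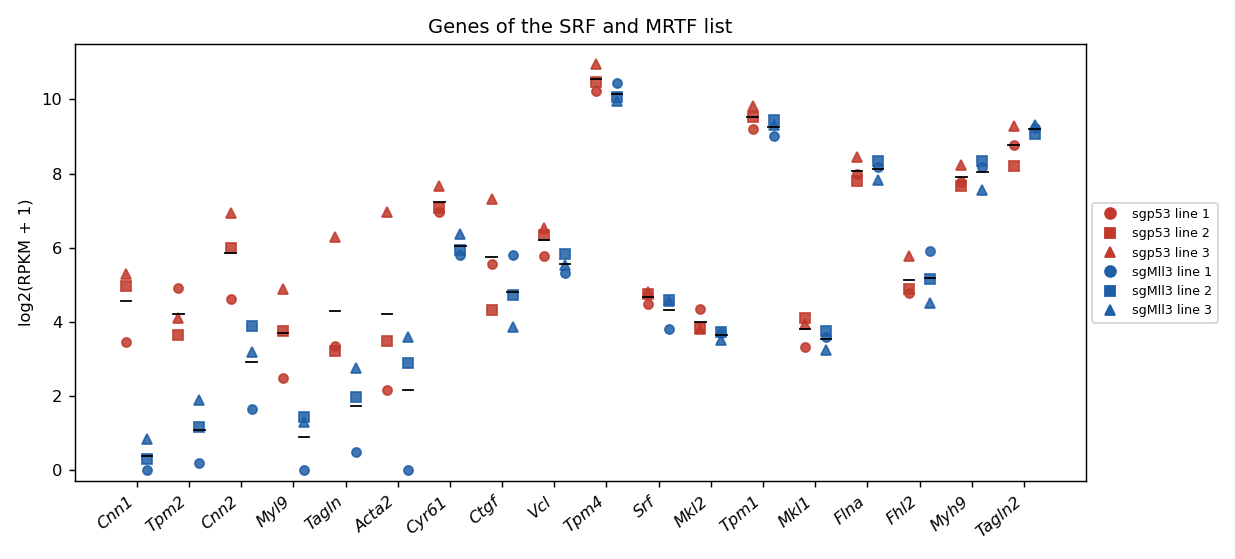
Log2(RPKM + 1) of the 18 genes of the SRF and MRTF list in each line, with sgp53 lines in red, sgMll3 lines in blue and a black bar at the mean of 3 lines. Genes are ordered by the difference between genotypes, from *Cnn1* at -4.19 to *Tagln2* at 0.44.

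The sequence bound by SRF, the CArG box, was found in 1.63% of the 32851 promoter windows. It was found in 6 of the 20 windows of SRF and MRTF genes, which belong to 5 of 16 genes with an entry. Of the 8 windows of the 7 members with an entry, 0 held it. The SRF and MRTF list was built around SRF, so its share beside that of all windows is no test. *Fhod3* has no entry, so its promoter was not searched. The *Myl9* window (chr2:156775214-156775513, plus strand) is shown as the one match among the 4 genes with the smallest p of that list, with the CArG box in capitals.

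Myl9: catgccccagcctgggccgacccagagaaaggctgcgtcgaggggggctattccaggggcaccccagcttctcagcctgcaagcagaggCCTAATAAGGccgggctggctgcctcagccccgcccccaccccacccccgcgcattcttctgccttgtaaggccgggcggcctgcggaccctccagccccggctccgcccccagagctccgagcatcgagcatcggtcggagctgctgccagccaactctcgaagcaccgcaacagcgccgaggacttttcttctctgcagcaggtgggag

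A CArG box outside these 300 bases would not have been seen.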

How the data were processed

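Genotype and line number were taken from the sample labels. The authors trimmed reads with Trimmomatic, mapped them to GRCm38 (mm10) with STAR and assigned them to genes with HTSeq. The values the authors deposited are RPKM, named FPKM in their methods. The deposited table holds 21065 rows, of which 209 carry no values. Its 6 further sample columns were not used. The authors also deposited their own DESeq2 (1.8.2) comparison (fold changes and p-values), which was not used.

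RPKM multiplied by transcript length gave whole reads for 100% of values (tolerance 0.01 read). Genotypes were compared with limma 3.58.1 in R 4.3.3 on log2(RPKM + 1) (empirical Bayes with trend, no covariate). Tested were 11617 genes that reached an RPKM of 1 in 3 or more of the 6 lines, with Benjamini-Hochberg adjustment and a threshold of 0.05. Genes under this filter were compared by exact two-sided permutation tests. The test was run on simulated data in which 200 genes changed by 3 on the log2 scale. It recovered a median of 99.5% of them over 5 draws, with a median of 18 false calls among 11973 genes. Recovery of smaller changes was not tested. Each simulated gene had the same spread between lines, unlike the real genes, so the 99.5% cannot be read as the recovery in the real lines. There *Cnn1* at -4.19 and *Tpm2* at -3.15 did not pass (adjusted p = 0.0611 and 0.148 from limma). *Trp53* at 2.56 did (adjusted p = 0.0140 from limma). Lines of a genotype differed by a chi-square of 26.5 or more per gene, above sampling noise, so none was treated as a copy. P-values measure the spread between derived lines.

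The members and all gene lists were chosen with earlier results of these data known. Named genes are all listed formins, up to 4 genes per actin list with the smallest unadjusted p under 0.05, a set of named actin, marker and targeted genes, the tested neighbors of *Fhod3* and the 5 genes most like it. Other pseudocounts, scalings, filters and moderation, voom on the recovered reads, a replicate block, each line left out and sgMll3 lines 2 and 3 as 1 sample were tried. Promoter windows are RefSeq's for GRCm38.p6. Plots were drawn with matplotlib 3.10.9. The result of 1 list of signaling regulators is not reported here.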

Additional observations from a re-analysis of the deposited data

How the results depend on the processing

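Under all 15 alternatives 0 of the 8 formins other than *Fhod3* and 0 of the actin genes passed the adjusted threshold, with 0 to 1 and 7 to 12 at an unadjusted p under 0.05. The count over all genes was less stable: 15 passed as reported, 20 without the trend, 4 with voom, 5 without the filter, 6 with a pseudocount of 0.1, 8 without sgMll3 line 1, and 0 with a replicate block, with sgMll3 lines 2 and 3 as 1 sample, or without any single line of the other 5. The *Fhod3* difference was -4.61 with voom, -4.47 and -3.78 with pseudocounts of 0.1 and 0.5, and -3.61 to -3.07 with a line left out. Signs turned for *Fmnl1* (0.43 with sgMll3 lines 2 and 3 as 1 sample, -1.25 to 0.60 with a line left out, 0.25 and 0.60 without sgMll3 lines 2 and 3), *Fmnl3* (-0.42 to 0.34 with a line left out, -0.42 without sgMll3 line 1, -0.13 and -0.06 without sgp53 lines 1 and 2), *Diaph1* (-0.016 to 0.31, lowest without sgMll3 line 3) and *Diaph2* (-0.10 to 0.47, lowest without sgMll3 line 1), and the cause was not tested. Adjusted p-values ranged from 0.489 to 0.927 for *Diaph3*, from 0.318 to 0.922 for *Inf2* and from 0.211 to 0.922 for *Fmn1*. Same-numbered lines deviated together with correlations of 0.192, 0.399 and 0.0316, and differently numbered lines with -0.284 to 0.152. These values do not settle whether the number marks a pairing. The labels state none, and the main test used none. The replicate block changed no call among formins and actin genes, with *Diaph3* at an unadjusted p = 0.0376 from limma. The planned quasi-likelihood count test was not run, because the deposited unit is RPKM. At these depths the low sgMll3 values of *Fhod3* and *Fmn1* rest on few reads.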
